A study of Mus musculus with 12 samples.

Results

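The genes described here encode the heterogeneous nuclear ribonucleoproteins (hnRNPs) and the serine/arginine-rich (SR) proteins. They were taken by symbol, as every gene whose name starts with Hnrnp or Srsf, or is Sfrs followed by digits, and that has at least 1 count. This gave 30 of the 22609 genes counted, made up of 18 Hnrnp genes, 11 Srsf genes and Sfrs18. hnRNP proteins reach the nascent transcript as it is made and many of them repress nearby splice sites, while SR proteins bind exonic enhancers and recruit the spliceosome. Members of both families also act later, in 3′ end formation, export, transport and decay of mRNA, and exchanges among such proteins accompany the change of splicing programme from neural progenitors to neurons. Many SR genes carry exons that send their own transcripts to nonsense-mediated decay (NMD).

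RNAseq was run on adherent neural stem (ANS) cells, which were derived from normal mouse brain at E14.5 and grow as a monolayer of progenitors. The names of the deposited expression columns mark all libraries as wt. At T0, the cells proliferated in growth medium with 20 ng/ml FGF2 and 20 ng/ml EGF (3 libraries). T1 cells had spent 2 days in medium D1, with 10 ng/ml FGF2 and 2 ng/ml EGF, and proliferated much less (3 libraries). T2 cells had spent 2 days in medium B, with 10 ng/ml FGF2 and 20 ng/ml BDNF, had stopped proliferating and began to differentiate (4 libraries), and T3 cells 10 days in the same medium, when they were described as overtly differentiated and GAD+ (2 libraries). All groups are cultures of these same cells and differ in medium, time and handling. By the study's methods, T2 and T3 cells had first passed through medium D1. They were then dissociated a further time and seeded on laminin, which the methods name for that step alone. The design asks how the abundance of these mRNAs differs between proliferating and differentiating cells.

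Between 8910724 and 16631614 counts fell on genes in a library. Summed markers of proliferating cells (Mki67, Top2a, Ccnb1, Pcna and Mcm2) ranged from 1313 to 2048 CPM at T0 (a gene's share of a library's counts, with TMM normalization), from 121.5 to 220.9 at T1, from 145.4 to 282.2 at T2 and from 431.7 to 730.2 at T3. The 6 neuronal markers together ranged from 893.5 to 961.1 CPM at T0 and from 2032 to 2604 CPM at T1. They ranged from 1997 to 2562 CPM at T2 and from 1688 to 2696 CPM at T3. Neural progenitor markers ranged from 5268 to 7412 CPM at T0 and from 5379 to 5622 CPM at T3. Astrocyte markers ranged from 253.8 to 1019 CPM at T0 and from 698.9 to 1055 CPM at T3. Oligodendrocyte lineage markers ranged from 977.5 to 1359 CPM at T0 and from 1650 to 1715 CPM at T3. Single genes of the progenitor, astrocyte and oligodendrocyte lists went both ways between T0 and T3. Their log2 fold changes ran from -0.60 to 0.54, from -1.77 to 1.31 and from -3.21 to 2.88. Of 7 GABAergic markers, Gad2, Slc32a1, Dlx2, Dlx5 and Dlx6 had at most 3 counts in every T3 library, and the list summed to 26.1 and 50.3 CPM there against 4.73 to 7.77 at T0. Only 2 of the 7 were tested at T3, with log2 fold changes of 3.77 and -0.78. The 5 microglial, 3 endothelial and 4 fibroblast markers summed to at most 1.35 CPM in any library. These are bulk samples, so fewer cells of a type and less RNA per cell cannot be told apart. The part of the proliferation and neuronal markers in the changes of the splicing genes was not tested.

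One T0 library stood apart. T0 replicates 1 and 2 differed by a chi-square of 3.28 per gene, whereas T0 replicate 3 differed from them by 101.4 and 105.3. The 30 hnRNP and SR genes together took 0.922% and 0.921% of the counts in T0 replicates 1 and 2, 1.23% in T0 replicate 3, and 0.722% to 0.818% in the 9 libraries of T1, T2 and T3. In T0 replicate 3, 25 of 29 of these genes lay above both other T0 libraries, against 47.1% of all genes tested, and 3 (Hnrnpa1, Hnrnph3 and Sfrs18) below both, against 45.8%. Their median ratio to the mean of the other two libraries was 1.33, with a range from 0.620 for Sfrs18 to 2.24 for Hnrnpab. The same library had proliferation markers at 2048 CPM against 1313 and 1386, and astrocyte markers at 253.8 CPM against 973.8 and 1019. Reads on no gene were 13.3% of its unique reads against 19.6% and 19.9%, and reads with several alignments 39.0% of its reads against 34.0% and 34.6%. The T1, T2 and T3 libraries held 25.99% to 33.3% reads with several alignments, less than any T0 library, and the part of this in the results was not tested. Counts and fold changes against T0 are given also without T0 replicate 3 where they moved.

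**Figure D1:**
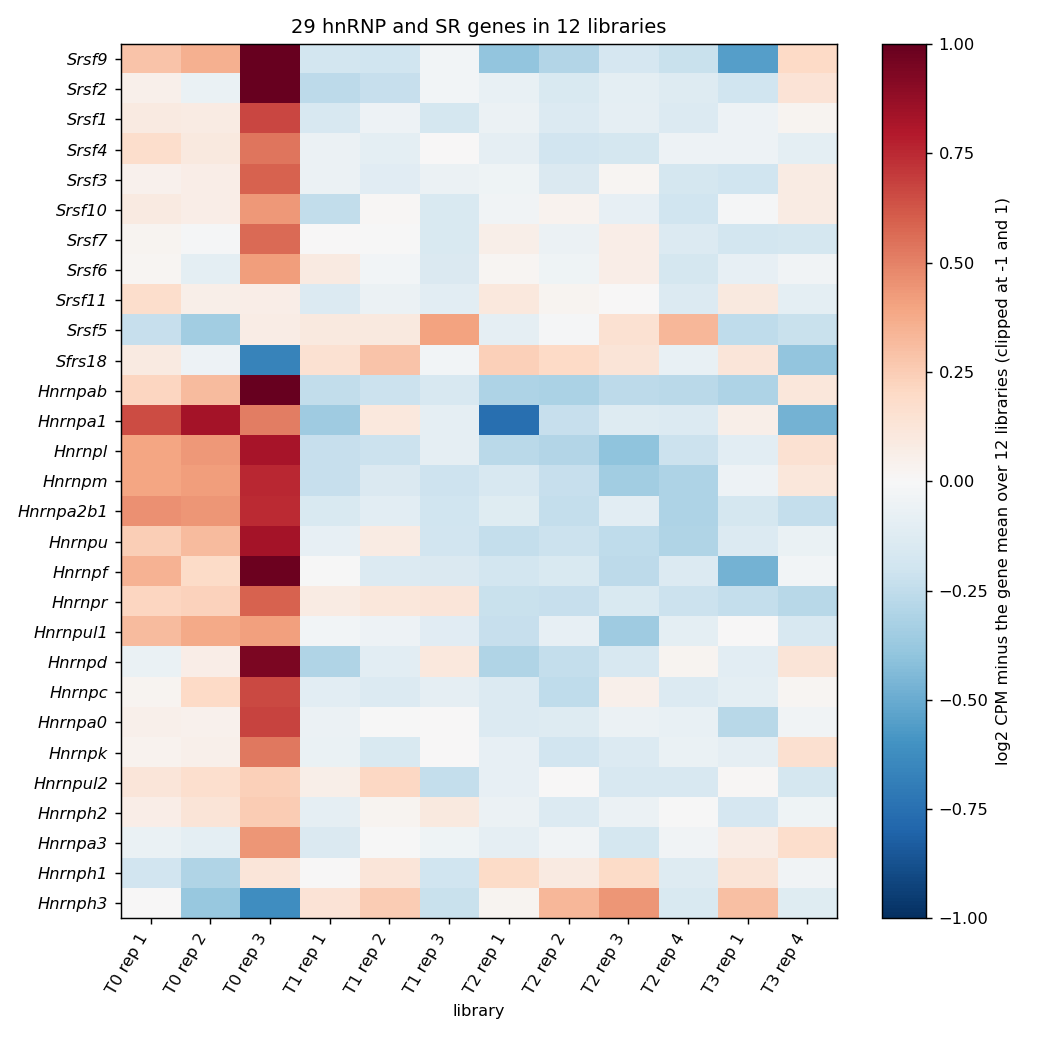
Relative levels of 29 hnRNP and SR genes (rows, SR genes on top) in the 12 libraries (columns), as log2 CPM minus each gene's mean over the libraries, with the colour scale clipped at -1 and 1. T0 replicate 3 is the highest library for most rows and the lowest for Sfrs18 and Hnrnph3, and the T1, T2 and T3 columns lie close to each other.

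Hnrnpa0, an hnRNP that binds AU-rich elements, is one of the genes whose 3′UTR the study followed by qPCR. It lies at chr13:58227240-58229917 (mm9, minus strand) as a single exon and a single annotated transcript of 2678 bases, with its coding part at bases 244 to 1161. The study amplified 2 short stretches of this 3′UTR, named Pre and post, of which post lies nearer to the 3′ end. The primers are given because they fix which part of the transcript each assay reads. Capitals mark the bases that match the reference genome, which is all of them, and every primer had 1 exact match in the genome, in the 3′UTR of Hnrnpa0.
Hnrnpa0 Pre F: AGAAAACGCTGTAGCCAGGT
Hnrnpa0 Pre R: CGGGAGTGAACTTGCTGAT
Hnrnpa0 post F: CAAAGAGATGGATGCACAGG
Hnrnpa0 post R: TCCTGTTTGCCCAGTTAGTG

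The Pre product covers 103 bases (1445 to 1547 of the transcript) and the post product 100 bases (1775 to 1874). In both pairs the primer listed as F matches the plus strand of the genome, so it is the one antisense to the Hnrnpa0 transcript. The word AATAAA, the canonical polyadenylation signal, was searched on the transcript strand in the 227 bases between the products. It occurs there 1 time, at base 1621, and 1 further time in the 3′UTR, at base 2659, close to the annotated end. Among 12095 coding genes whose 3′UTR reaches as far, 12.4% hold the word in the same window after the stop codon. The variant ATTAAA was not found in this 3′UTR, and 10.1% of genes hold it in that window. A match is a description of the letters, not of a used site. The primer pair listed for Map2 in the same primer table differs from the Hnrnpa0 post pair by 0 letters, and each of its primers has its only genome match in the 3′UTR of Hnrnpa0. Why the table lists it so was not tested. Neither product was measured by these libraries, which give counts over whole genes.

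At T0, Hnrnpa0 reached 359.7, 357.2 and 552.1 CPM in replicates 1, 2 and 3. At T1 it reached 332.2, 345.4 and 347.6 CPM. It stood at 315.6, 317.2, 331.9 and 328.4 CPM at T2 and at 286.1 and 338.5 CPM at T3. Every T1, T2 and T3 library lay below every T0 library, and a single T0 library lay far above the other two. The fitted log2 fold change was -0.32 ± 0.19 (SE) at T1, -0.38 ± 0.16 at T2 and -0.42 ± 0.25 at T3, with edgeR adjusted p of 0.228, 0.0865 and 0.330, so Hnrnpa0 did not pass the threshold of 0.05. Without T0 replicate 3, the values were -0.08 ± 0.08, -0.15 ± 0.08 and -0.19 ± 0.13 (edgeR adjusted p = 0.408, 0.129 and 0.333).

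**Figure D2:**
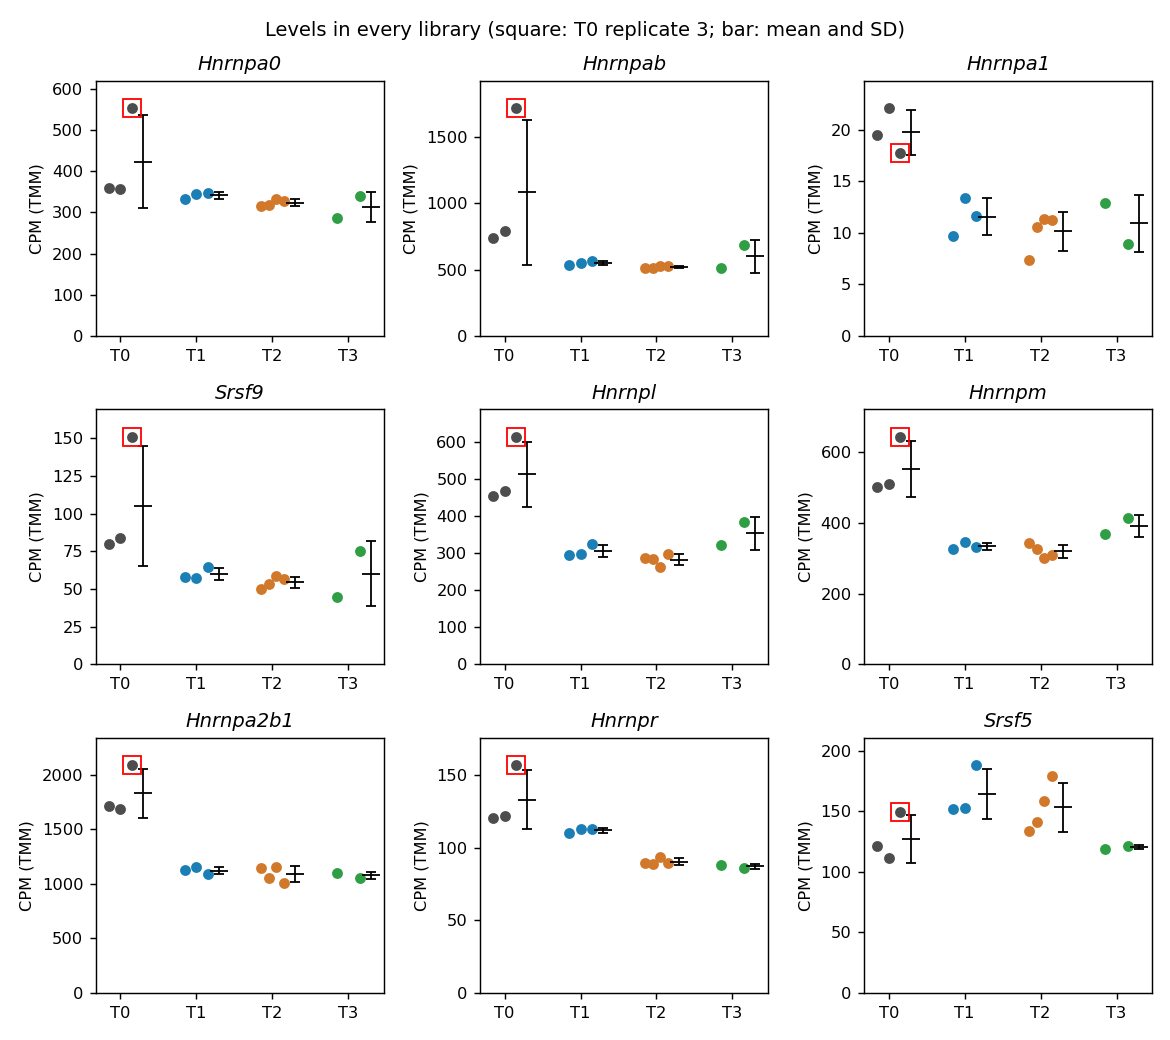
Levels of 9 genes in every library, in TMM-scaled CPM on axes that start at 0, for T0, T1, T2 and T3. Points are libraries, bars give the mean and SD, and a square marks T0 replicate 3. Hnrnpa0 stays between 286.1 and 359.7 CPM in all libraries except T0 replicate 3, while Hnrnpa2b1, Hnrnpl and Hnrnpm lie clearly lower in every T1 and T2 library than in any T0 library.

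From T0 to T1, 6 of the 29 genes that passed the low count filter were lower and 0 higher (edgeR, adjusted p under 0.05). Among all genes tested, 16.8% were called lower and 15.1% higher. The unadjusted p was under 0.05 for 13 of the 29, the same share as the 44.8% of all genes, and DESeq2 called 9 lower and 0 higher (20.1% and 18.8% of all genes). The median log2 fold change of the 29 was -0.34, that of all genes -0.0082. The 6 were Hnrnpa1, Hnrnpa2b1, Hnrnpl, Hnrnpm, Hnrnpul1 and Srsf9, that is 5 of 18 hnRNP genes and 1 of 11 SR genes. Without T0 replicate 3, all 6 were called again, the count rose to 12 lower and 1 higher (24.9% and 25.2% of all genes), and the median moved to -0.17. The count at T1 also moved with single T1 libraries, and without T1 replicate 1, 2 or 3, it was 1, 3 and 3. The calls over all genes moved as well, to 983 of 12542, 940 of 12528 and 1215 of 12536 lower.

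At T2, 12 of 29 genes were lower than at T0 and 0 higher, against 21.8% and 21.4% of all genes tested. By DESeq2 14 were lower and 0 higher (23.9% and 23.6% of all genes), and 17 of 29 had an unadjusted p under 0.05 in edgeR, against 52.5% of all genes. Of the hnRNP genes, 10 of 18 fell (Hnrnpa1, Hnrnpa2b1, Hnrnpab, Hnrnpf, Hnrnpl, Hnrnpm, Hnrnpr, Hnrnpu, Hnrnpul1 and Hnrnpul2), with a median log2 fold change of -0.55. Among the SR genes, 2 of 11 fell (Srsf4 and Srsf9), with a median of -0.27. The difference between both families was not tested. Without T0 replicate 3, all 12 were called lower again, Hnrnph1 and Srsf5 were called higher, and the medians were -0.33 and -0.11 (all genes: 25.3% lower and 26.7% higher).

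Neither a fall nor a rise was called at T3, where 1.41% of all genes were lower and 3.31% higher. DESeq2 called 1 gene lower, Hnrnpa2b1, and 0 higher (7.41% and 8.54% of all genes). One model over all 12 libraries called 10 lower and 0 higher (14.4% and 15.4%), and 8 of 29 had an unadjusted p under 0.05 in edgeR, against 26.3% of all genes. The median log2 fold change was -0.34, or -0.18 without T0 replicate 3. Without T0 replicate 3, Hnrnpa2b1 and Hnrnpr were called lower and 0 higher, against 8.49% and 9.94% of all genes. The T1, T2 and T3 comparisons share the T0 libraries, so their values are given side by side and are not independent of each other.

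**Figure D3:**
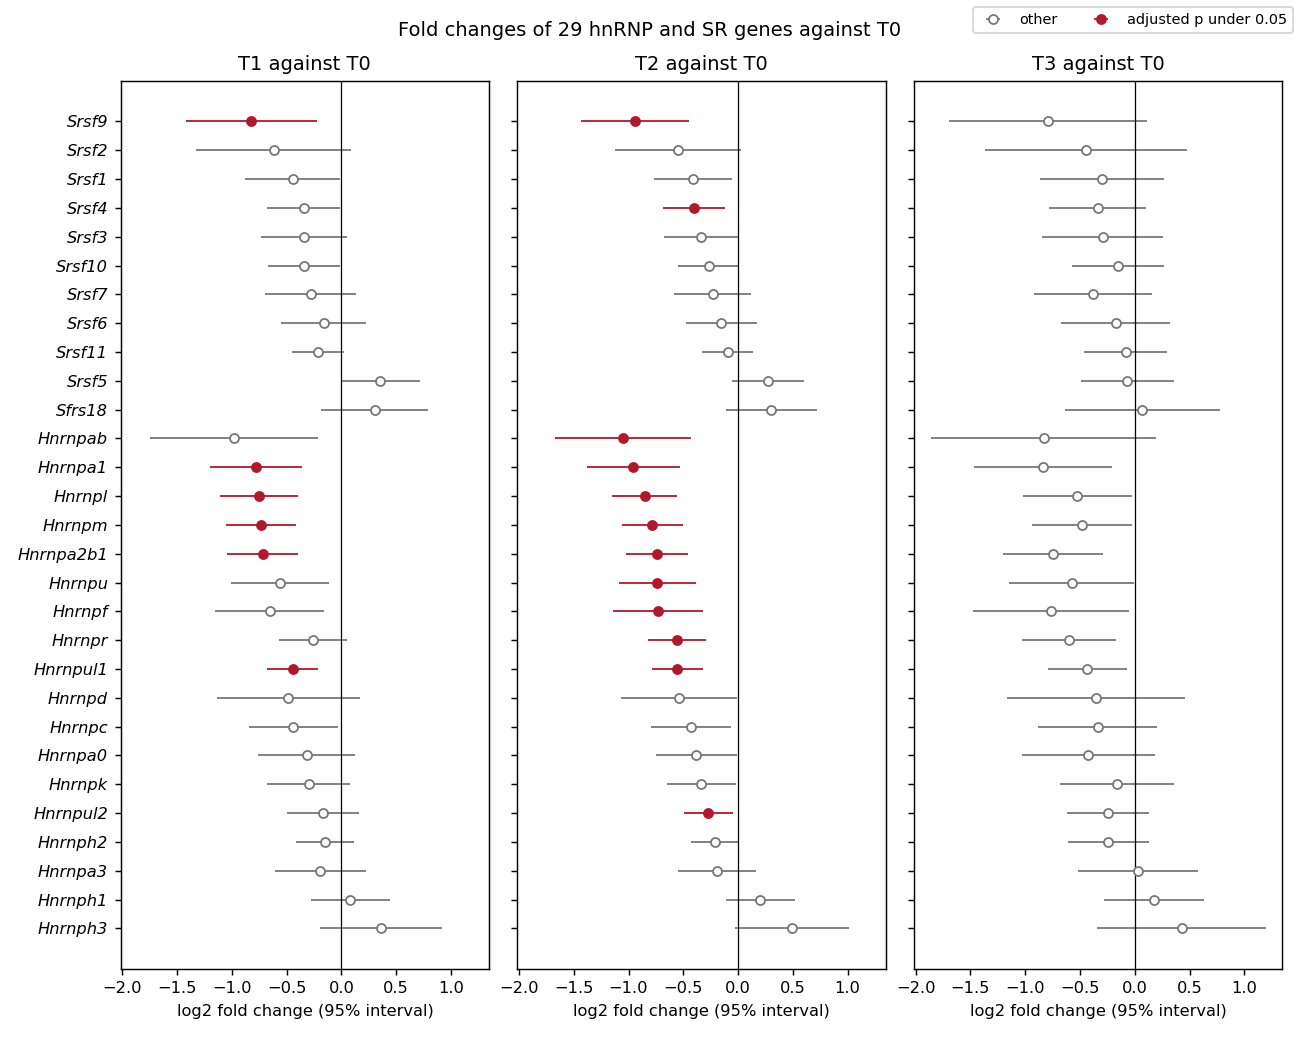
Log2 fold change of 29 genes at T1, T2 and T3 against T0 (x axis), with 95% intervals from the edgeR fits, SR genes on top and hnRNP genes below, ordered by T2. Filled points have an adjusted p under 0.05, and the intervals are widest at T3, where 2 libraries were fitted, and most points lie left of 0 in each panel.

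Groups without overlap were also counted. At T2, 19 of 29 genes had every T2 library below every T0 library and 0 had every one above, against 26.6% and 27.6% of all genes. At T1, 18 lay below and 1, Srsf5, above (27.2% and 29.1% of all genes), and at T3 17 lay below and 0 above (25.4% and 24.6%). Against T0 replicates 1 and 2 alone, 18 lay below and 1 above at T1 (34.0% and 35.9% of all genes), 19 and 2 at T2 (32.7% and 33.6%), and 17 and 2 at T3 (34.7% and 32.6%). The genes above were Srsf5 at T1, Hnrnph1 and Srsf5 at T2, and Hnrnpa3 and Hnrnph1 at T3.

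The A/B hnRNPs package nascent RNA and bind exonic silencers. Hnrnpa2b1 (chr6:51410433-51419893), which also guides mRNA transport, had T0 levels of 1714, 1689 and 2088 CPM and T1 levels of 1123, 1156 and 1086 CPM. At T2 it stood at 1145, 1054, 1158 and 1004 CPM, and at T3 at 1100 and 1058 CPM. No later library reached the lowest T0 library, and the levels at T1, T2 and T3 overlapped. Its log2 fold change was -0.72 ± 0.14 at T1 and -0.74 ± 0.12 at T2 (edgeR adjusted p = 0.00951 and 0.00204), and -0.61 and -0.64 without T0 replicate 3.

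Hnrnpab (chr11:51412372-51420349), a relative of Hnrnpd that binds AU-rich and DNA elements, had the largest fitted fall at T2 with all libraries, but not without T0 replicate 3, and the widest spread at T0. Its T0 levels were 738.3, 792.4 and 1715 CPM, and its T2 levels 513.3, 511.4, 529.2 and 528.9 CPM. The T1 levels, at 537.6, 548.5 and 568.5 CPM, lay below all T0 libraries, as did 513.3 and 688.4 CPM at T3. The log2 fold change at T2 was -1.05 ± 0.27 (edgeR adjusted p = 0.0151) and became -0.55 ± 0.08 without T0 replicate 3. At T1 it missed the threshold at -0.98 ± 0.32 (edgeR adjusted p = 0.0563) and passed it without that library (-0.48 ± 0.08, adjusted p = 0.00153). In the GENCODE annotation, exons of Agxt2l2 cover 26.9% of the exonic length of Hnrnpab, so its level is uncertain.

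Hnrnpa1 (chr15:103070945-103074445), the repressor that opposes SR proteins at many exons, was counted at 19.5, 22.1 and 17.7 CPM at T0. Its levels were 9.7, 13.3 and 11.7 CPM at T1, then 7.3, 10.6, 11.3 and 11.3 CPM at T2, with 12.9 and 9.0 CPM at T3. All 9 later libraries lay below the T0 libraries, and T0 replicate 3 was here the lowest of the T0 libraries. It fell by 0.78 ± 0.18 on the log2 scale at T1 and by 0.96 ± 0.19 at T2 (edgeR adjusted p = 0.0172 and 0.0042), and without T0 replicate 3 the values were -0.85 and -1.03. Of its exonic 50-base words, 83.3% also occur elsewhere in the genome, and reads with several alignments were not counted, so its level is uncertain. The closely related Hnrnpa3, for which that share is 89.3%, had log2 fold changes of -0.19, -0.19 and 0.03, and did not pass the test.

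Hnrnpl (chr7:29593560-29607285) binds CA-rich RNA and Hnrnpm (chr17:33783178-33823805) GU-rich RNA. Hnrnpl had 454.8, 467.3 and 612.7 CPM at T0, then 293.8, 298.2 and 324.7 CPM at T1, 286.5, 282.5, 261.7 and 298.4 CPM at T2, and 320.95 and 384.2 CPM at T3. Hnrnpm had 502.6, 509.9 and 643.8 CPM at T0, then 326.5, 345.6 and 331.1 CPM at T1, 342.3, 326.4, 300.8 and 309.4 CPM at T2, and 369.9 and 413.5 CPM at T3. In both genes the groups T0 and T2 were far apart, and both T3 libraries lay above all T2 libraries and below all T0 libraries. Hnrnpl fell by 0.85 ± 0.13 and Hnrnpm by 0.78 ± 0.12 on the log2 scale at T2 (edgeR adjusted p = 0.0013 and 0.00144). Leaving out T0 replicate 3 gave -0.71 ± 0.08 and -0.66 ± 0.08 at T2. In the GENCODE annotation, exons of March2 cover 24.8% of the exonic length of Hnrnpm, so its level is uncertain.

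Hnrnpu, also known as scaffold attachment factor A, and its relatives Hnrnpul1 and Hnrnpul2 bind RNA and chromatin. Hnrnpu had a mean of 1357 ± 316 CPM (SD, n = 3) at T0 and of 811 ± 20.1 (SD, n = 4) at T2, with a log2 fold change of -0.74 ± 0.15 (edgeR adjusted p = 0.00576). Hnrnpul1 was at 241 ± 8.23 CPM (SD, n = 3) at T0, hardly moved by T0 replicate 3, and at 164 ± 14.3 (SD, n = 4) at T2 (log2 fold change -0.55 ± 0.10, edgeR adjusted p = 0.00352). Hnrnpul2 fell by 17.1% at T2 with an edgeR adjusted p of 0.0497, the value nearest to the threshold. The 3 had -0.53, -0.53 and -0.24 at T2 without T0 replicate 3 and passed there too. Hnrnpul1 was also lower at T1 (-0.44 ± 0.10, edgeR adjusted p = 0.0163), whereas Hnrnpu (-0.56 ± 0.19) and Hnrnpul2 (-0.17 ± 0.14) did not pass there.

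The H/F hnRNPs bind runs of G. Hnrnpf fell by 0.73 ± 0.18 on the log2 scale at T2 (edgeR adjusted p = 0.0123) and by 0.45 without T0 replicate 3, with 76.7% of its 50-base words found elsewhere in the genome. Hnrnph1, Hnrnph2 and Hnrnph3 did not pass in any comparison with all libraries, and went in different directions at T2, with 0.20 ± 0.14, -0.21 ± 0.09 and 0.49 ± 0.23. Hnrnph1, without T0 replicate 3, was called higher at T2 (0.33 ± 0.11, edgeR adjusted p = 0.0262). In the GENCODE annotation, the exons of Hnrnph3 share 75.5% of their length with exons of Rufy2. Ambiguous reads were not counted, so the Hnrnph3 level of 5.72 to 11.98 CPM is uncertain.

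Of the other hnRNPs, Hnrnpr, a relative of Syncrip found in motor axons, fell at T2 and is described with the step from T1 to T2. Hnrnpc, which covers U tracts, Hnrnpd, which promotes decay of AU-rich mRNAs, and Hnrnpk, which binds C-rich RNA, had log2 fold changes at T2 of -0.43 ± 0.16, -0.54 ± 0.23 and -0.33 ± 0.14 that did not pass (edgeR adjusted p = 0.0557, 0.0889 and 0.0787). These became -0.23, -0.16 and -0.16 when T0 replicate 3 was left out. Hnrnpd was among the genes most raised in that library, at 383.7 CPM against 191.5 and 209.8.

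Among the SR genes, Srsf9 (chr5:115777186-115783089), a small SR protein with a short SR domain, was the one with the largest fall. It had 79.9, 84.0 and 150.9 CPM at T0, then 57.9, 57.1 and 64.4 CPM at T1, 50.05, 53.5, 58.4 and 56.4 CPM at T2, and 44.9 and 75.2 CPM at T3. All later libraries lay below T0, and the T3 pair spanned the whole range of T1 and T2. The log2 fold change was -0.82 ± 0.25 at T1 and -0.94 ± 0.22 at T2 (edgeR adjusted p = 0.0452 and 0.00898), or -0.46 ± 0.09 and -0.58 ± 0.09 without T0 replicate 3. Srsf4, a long SR protein, fell by 24.4% at T2 (edgeR adjusted p = 0.029), with -0.26 ± 0.08 without T0 replicate 3. In the GENCODE annotation, exons of Gm12992 cover 43.3% of its exonic length, so its level is uncertain.

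Srsf5, an SR protein whose mRNA is regulated by growth signals, had fitted values above 0 at T1 and T2. It stood at 121.1, 111.5 and 149.3 CPM at T0, at 152.0, 152.4 and 188.0 CPM at T1, at 133.9, 141.4, 158.3 and 179.3 CPM at T2, and at 119.0 and 121.6 CPM at T3. The T1 libraries lay above all T0 libraries, while T2 overlapped T0 through T0 replicate 3. With all libraries it did not pass at T1 (0.36 ± 0.15, edgeR adjusted p = 0.116) or T2 (0.27 ± 0.14, adjusted p = 0.158). It was called higher at both without T0 replicate 3, by 0.49 ± 0.11 and 0.40 ± 0.12 (edgeR adjusted p = 0.00655 and 0.0188). Of its 50-base words, 49.97% occur elsewhere in the genome.

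The SR genes Srsf1, Srsf2, Srsf3, Srsf6 and Srsf7 did not pass in any comparison with all libraries. Their log2 fold changes at T2 were -0.41 ± 0.16, -0.55 ± 0.25, -0.33 ± 0.15, -0.15 ± 0.14 and -0.23 ± 0.15. The same values without T0 replicate 3 were -0.19, -0.11, -0.14, 0.01 and -0.02, and at T1 Srsf1 was called lower (-0.23 ± 0.08, edgeR adjusted p = 0.0451). Srsf2 was at 640.5 CPM in T0 replicate 3 and at 319.9 and 294.0 CPM in the other T0 libraries. The splicing repressor Srsf10 and the U2AF-binding Srsf11 had log2 fold changes from -0.34 to -0.08 over T1, T2 and T3 and did not pass with all libraries. Srsf11 was called lower at T1 without T0 replicate 3 (-0.23 ± 0.08, adjusted p = 0.037). Sfrs18, also named Pnisr, an arginine/serine-rich protein without the usual SR architecture, had values of 0.30, 0.30 and 0.07. Srsf12 had 7 counts over 5 libraries, at most 3 in any of them, and was not tested.

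**Figure D4:**
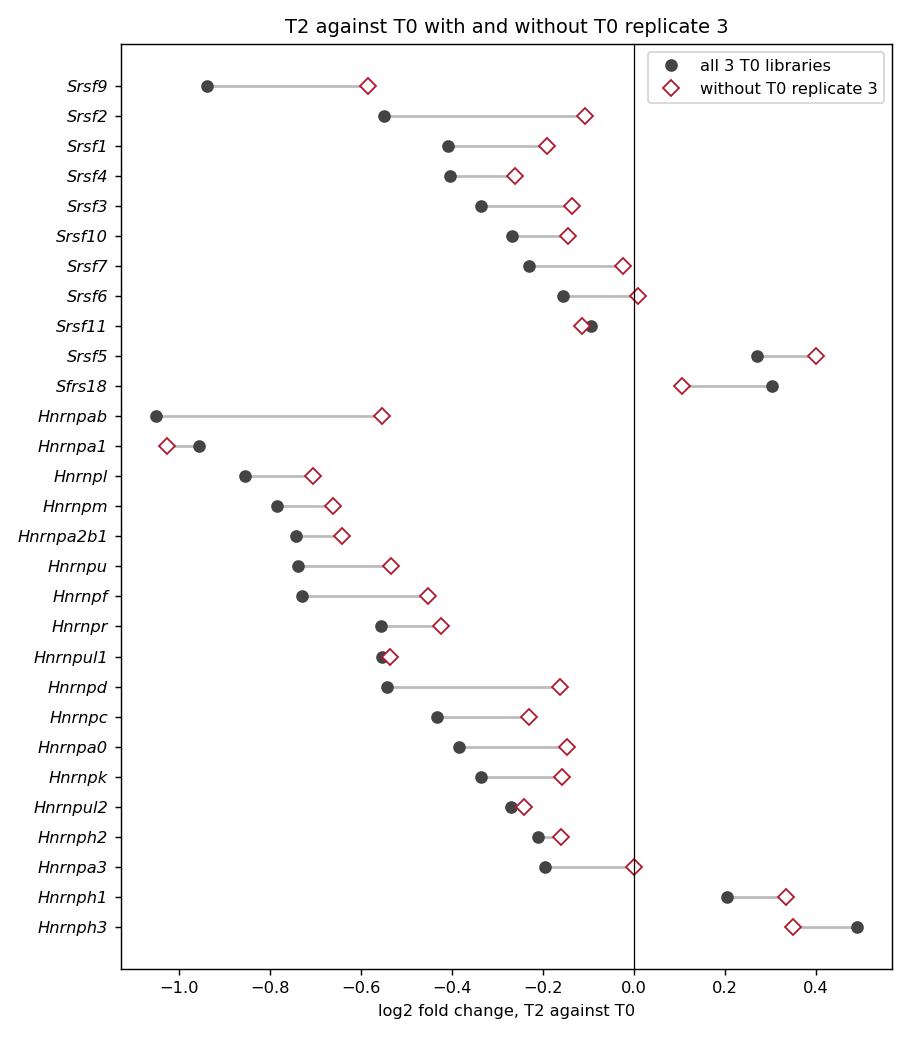
Log2 fold change at T2 against T0 (x axis) of 29 genes with all 3 T0 libraries (filled circles) and without T0 replicate 3 (open diamonds), joined by a line for each gene. Hnrnpab, Srsf2, Hnrnpd and Srsf9 move most towards 0, whereas Hnrnpa1, Hnrnpul1 and Hnrnpul2 hardly move.

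Levels relative to Hnrnpa0 within the same library need no scaling between libraries. In CPM, however, Hnrnpa0 itself lay lower in every T1, T2 and T3 library than in any T0 library. A gene with unchanged CPM therefore has a higher ratio there. At T2, 8 of the 28 other genes tested had a ratio to Hnrnpa0 below all T0 libraries, T0 replicate 3 included, against 12.6% of all genes, and 3 had a ratio above them, against 42.7%. The 8 were Hnrnpa2b1, Hnrnpab, Hnrnpf, Hnrnpl, Hnrnpm, Hnrnpr, Hnrnpu and Srsf9, and the 3 were Hnrnpa3, Hnrnph1 and Srsf5. At T1, 9 lay below and 3 above (15.3% and 39.5% of all genes). At T3, 3 lay below (Hnrnpab, Hnrnpf and Hnrnpu) and 8 above (9.24% and 44.3%). Against T0 replicates 1 and 2 alone, 15 lay below and 3 above at T1 (29.0% and 40.5% of all genes), 11 and 3 at T2 (23.5% and 44.0%), and 8 and 10 at T3 (20.9% and 46.4%). For Hnrnpm, the ratio of counts was 1.397, 1.428 and 1.166 at T0, 1.085, 1.029, 0.9064 and 0.9421 at T2, and 1.293 and 1.222 at T3. Hnrnpm at T3 thus lay within its T0 range on this scale only through T0 replicate 3, and below T0 replicates 1 and 2. In CPM, it lay below all T0 libraries.

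Time points after T0 were compared with their neighbours. From T1 to T2, 0 of 29 were called, against 0.0565% of all genes lower and 0.573% higher; 1 had an unadjusted p under 0.05, against 11.7% of all genes. DESeq2 called 1 lower, Hnrnpr, and 0 higher (0.565% and 1.99% of all genes). The levels of Hnrnpr were 120.8, 122.0 and 156.8 CPM at T0, 110.1, 112.8 and 113.2 CPM at T1, 89.5, 88.7, 93.9 and 89.7 CPM at T2, and 88.4 and 85.9 CPM at T3. T2 lay below all of T1, and T1 below all of T0. The fitted log2 fold change from T1 to T2 was -0.30 ± 0.06 with an edgeR adjusted p of 0.0707. In the fit with the replicate number as a block it was -0.30 ± 0.06 with an adjusted p of 0.0484, and DESeq2 gave 0.00178. Its fall from T0 to T2 was 0.55 ± 0.12 on the log2 scale (edgeR adjusted p = 0.00585). Of the 50-base words of Hnrnpr, 36.3% occur elsewhere in the genome. With Hnrnpr, Hnrnpa0, Hnrnpab and Hnrnpu had every T2 library below every T1 library (4 of 29 genes, against 5.52% of all genes), and 0 had every one above (6.56%). For Hnrnpa0 the nearest libraries were almost equal, at 331.92 CPM (T2 replicate 3) and 332.15 CPM (T1 replicate 1). The fitted values of Hnrnpa0, Hnrnpab and Hnrnpu were -0.08 ± 0.07, -0.08 ± 0.07 and -0.19 ± 0.09 (edgeR adjusted p = 0.725, 0.725 and 0.447).

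From T2 to T3, 0 of 29 were called, against 0.691% of all genes lower and 0.5% higher in edgeR and 2.58% and 3.49% in DESeq2, and 3 had an unadjusted p under 0.05, against 17.0% of all genes. These were Hnrnpl (0.33 ± 0.115), Hnrnpm (0.30 ± 0.11) and Srsf5 (-0.34 ± 0.13), with edgeR adjusted p of 0.192, 0.203 and 0.236. Both T3 libraries lay above all T2 libraries for Hnrnpa3, Hnrnpl, Hnrnpm, Hnrnpu and Srsf1 (5 of 29, against 12.8% of all genes) and below them for Hnrnpr, Srsf5 and Srsf7 (3 of 29, against 12.9%). With 2 libraries at T3, small differences were not detectable.

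Levels between genes were compared per length. By mean FPKM over the 12 libraries, Hnrnph1 (661.8), Hnrnpa2b1 (373.8) and Hnrnpab (299.8) were highest, and Hnrnpa1 (17.4), Hnrnpa3 (12.7) and Srsf12 (0.00918) lowest. Hnrnpa0 ranked 14 of 30 by FPKM (95.2) and 4 of 30 by CPM per kilobase of annotated exon (131.1). Hnrnph1 ranked 1 by FPKM and 12 by CPM per kilobase, and over all 30 genes 19 ranks were at most 5 apart. The annotation of Hnrnph1 joins 18 transcripts into 5.84 kilobases of exon, whereas Hnrnpa0 has 1.

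**Figure D5:**
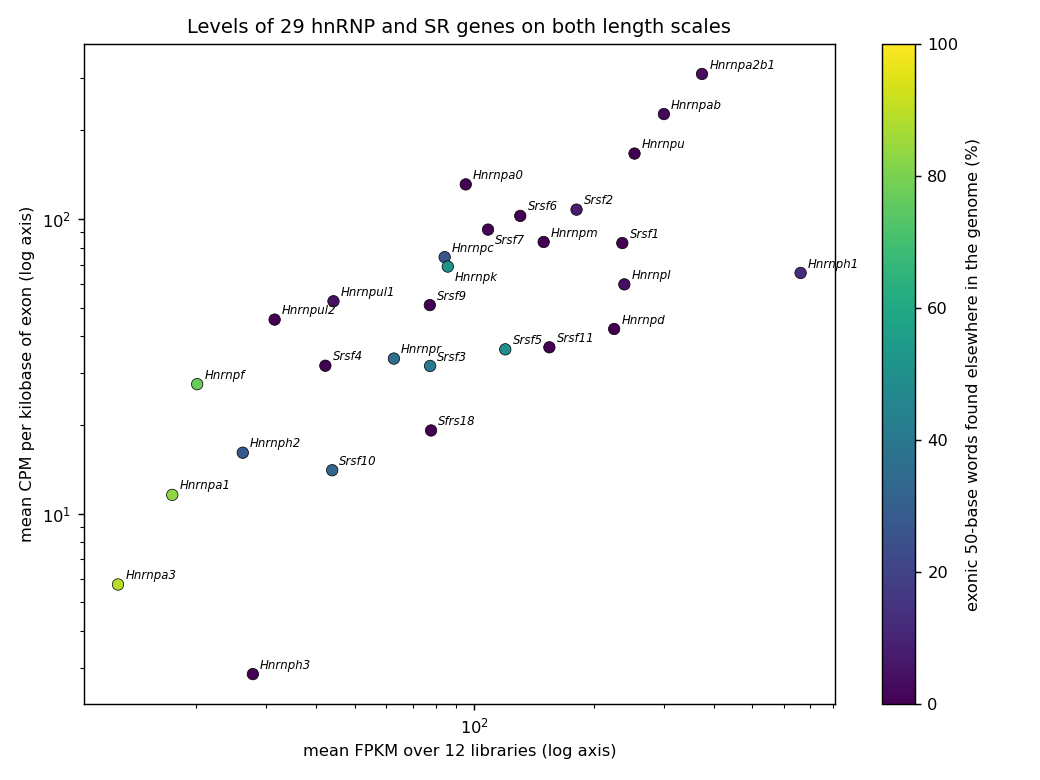
Mean level of 29 genes over the 12 libraries as FPKM (x, log axis) and as CPM per kilobase of exon (y, log axis); the colour gives the share of exonic 50-base words found elsewhere in the genome. Hnrnpa3, Hnrnpa1 and Hnrnpf, with shares of 89.3%, 83.3% and 76.7%, lie towards the low end of both axes, and Hnrnph1 lies far to the right at a middle height.

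Annotated transcripts that are targets of NMD were found for 10 of the 29 genes tested (34.5%), against 16.7% of 11973 protein-coding genes tested. Transcripts with a retained intron were annotated for 37.9% and 34.7%. The genes had a median of 5 annotated transcripts against 3, and counts over whole genes do not separate such transcripts. Hnrnpa0 was the only one of the 29 whose longest coding transcript has 1 exon.

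Other genes of the pathway were read from the same fits. Of 20 hnRNP proteins outside the Hnrnp prefix, 8 fell and 2 rose at T2 (21.8% and 21.4% of all genes), with a median log2 fold change of -0.36. Without T0 replicate 3, 8 fell and 3 rose (25.3% and 26.7% of all genes). Ptbp1, the polypyrimidine tract protein of progenitors, fell by 1.005 ± 0.25 on the log2 scale, and its neuronal relative Ptbp2 rose by 0.58 ± 0.09 (edgeR adjusted p = 0.0131 and 0.00173). Raly (-0.72 ± 0.17) and Taf15 (-0.72 ± 0.12) also fell, and Cirbp, a cold-inducible RNA-binding protein, rose by 0.90 ± 0.17. The directions of these 5 were the same without T0 replicate 3, at -0.57 for Ptbp1, 0.60 for Ptbp2, -0.47 for Raly, -0.61 for Taf15 and 0.79 for Cirbp. At T1, 7 of 20 fell and 2 rose (16.8% and 15.1% of all genes), or 8 and 2 without that library (24.9% and 25.2%), and at T3 0 passed with all libraries (1.41% and 3.31%) and 1 fell without it (8.49% and 9.94%). The shares of all genes given here also stand behind the lists that follow.

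Of 43 Sm and core snRNP proteins, the constant parts of the spliceosome, 21 fell and 2 rose at T2 (21.8% and 21.4% of all genes), with a median of -0.43. Lsm2 (-1.69 ± 0.30), Lsm5 (-1.11 ± 0.37) and Lsm4 (-1.11 ± 0.19), parts of the Lsm ring, had the largest falls, and Lsm5 was not called without T0 replicate 3. Snrpn, the Sm protein of neurons, whose transcript it shares with Snurf, rose by 1.59 ± 0.34 and the U2 snRNP protein Sf3b1 by 0.29 ± 0.10. Leaving out T0 replicate 3, 20 of 43 fell and 3 rose (25.3% and 26.7% of all genes), with a median of -0.25. The falls of Lsm2 and Lsm4 were then 1.16 and 0.82, and the rise of Snrpn 1.24. At T1, 10 fell and 1 rose, or 18 and 2 without T0 replicate 3 (16.8% and 15.1%, then 24.9% and 25.2% of all genes), and at T3 0 did either way (2 fell and 1 rose without T0 replicate 3).

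Of 14 SR protein kinases, phosphatases and import factors, 3 fell and 2 rose at T2, with a median of -0.0018, against 21.8% and 21.4% of all genes. The SR kinase Srpk1 fell (-0.66 ± 0.12), as did the SR importer Tnpo3 (-0.48 ± 0.13) and the phosphatase catalytic subunit Ppp1ca (-0.52 ± 0.17), and the related kinases Srpk2 (0.55 ± 0.15) and Srpk3 (1.60 ± 0.42) rose. With T0 replicate 3 left out, these values were -0.55 for Srpk1, -0.32 for Tnpo3, -0.26 for Ppp1ca, 0.39 for Srpk2 and 1.20 for Srpk3, and 3 fell and 4 rose. At T1, 1 fell and 1 rose, or 3 and 4 without that library, and at T3 0 passed, or 1 (Srpk1, lower) without it. Among 24 SR-related proteins, 5 fell and 2 rose at T2 (median -0.235), against 21.8% and 21.4% of all genes, with Scaf11 (-0.56 ± 0.14), Bclaf1 (-0.49 ± 0.12) and Rnps1 (-0.47 ± 0.15) lowest. Luc7l, a U1 snRNP partner, rose by 0.57 ± 0.13. Srrm3, a relative of the neuronal microexon factor Srrm4, had at most 2 counts in a T0 library and 16 to 31 in the T2 libraries (mean 1.94 CPM), and was called higher. With T0 replicate 3 left out, 7 of the 24 fell and 2 rose at T2. At T1, 4 of 23 fell and 0 rose, or 5 and 2 of 24 without that library, and at T3 Srrm3 alone was called higher, with Scaf11 lower in addition when that library was left out. Of 12 NMD factors, Upf3a fell at T2 (-0.40 ± 0.12) and 0 rose (1 fell and 1 rose without T0 replicate 3), 0 passed at T1 and 0 at T3, with medians of -0.11, -0.084 and -0.11 at T2, T1 and T3.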

How the data were processed

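ANS cell libraries were made with the TruSeq RNA kit v2 from polyA RNA and sequenced on an Illumina HiScanSQ. Per the labels, the submitters' processing notes name CASAVA 1.8, TopHat2 2.0.6, Bowtie 0.12.7.0, HTSeq 0.6.0 and DESeq2 1.0.0, with mm9. The study's methods name the iGenomes gene models for mm9. Read length and strand setting are not given in the sources used here. The authors deposited raw counts per gene for each library, with 5 summary entries left out here (reads on no gene were 13.3% to 24.1% of unique reads), and FPKM values in 1 table, used for levels between genes and 1 alternative.

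Groups came from the labels, which do not tie samples to separate cultures, so p-values measure the spread between these samples. The series design text calls them biological replicates. Each comparison was fitted on its own libraries with edgeR 4.0.16 in R 4.3.3 (TMM, filterByExpr, quasi-likelihood test, Benjamini-Hochberg adjustment over all genes, threshold 0.05). CPM values were scaled by TMM over the 12 libraries. Errors of fold changes are SE. The fits were tested on simulated data. Gene models, positions and 50-base words (a length chosen here) came from GENCODE vM1 on NCBIM37. Overlaps between genes are those of GENCODE, and whether the gene models used for counting hold them was not tested. DESeq2 1.42.0, limma 3.58.1 on log2(FPKM + 1), other scalings, filters, a replicate block and left-out libraries were alternatives. Groups without overlap were counted again without T0 replicate 3, a choice made after seeing the data. The members and lists were chosen with earlier results of these data known. Every member is named, the most changed ones with all libraries. From other lists, up to 3 rises and 3 falls at T2 are named. Same-numbered T1 and T2 libraries deviated together (correlations 0.199, 0.341 and 0.166), so the blocked value is given for that step. The highest correlation, however, was between T2 replicate 4 and T1 replicate 3 (0.370), which differ in number. The other differently numbered pairs had -0.309 to 0.0694. Whether the numbers pair the libraries is therefore not established. Protein sequences and 3′UTR isoforms were not analysed here.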

Additional observations from a re-analysis of the deposited data

How the results depend on the processing

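The directions of the 18 called falls (6 at T1, 12 at T2) held under every alternative that was run, with 251 refits that kept the call and 31 that did not. Of the refits of genes not called, 70 gave a call, 930 did not and 23 turned the sign. Hnrnpa0 at T2 was among those that some refits called. Leaving out 1 library gave 10 to 14 lower at T2, against 2086 of 12540 to 3215 of 12686 genes. The fit of all 12 libraries gave 16 (24.8% of all genes). FPKM with limma also gave 16 lower at T2 (3011 of 13360 genes). For genes called lower at T1 (6), leaving out 1 library gave 1 to 12, against 940 of 12528 to 3128 of 12557 genes. The fit of all 12 libraries gave 13 there (21.2% of all genes). Libraries numbered 1 and 2 alone gave 15 lower and 3 higher at T1 (29.9% and 29.9% of all genes) and 13 lower and 2 higher at T2 (27.4% and 27.5%). Leaving out 1 library gave 0 to 1 higher at T1 (810 of 12528 to 3162 of 12557 genes). At T2 it gave 0 to 2 higher (2007 of 12540 to 3391 of 12686 genes). At T3, against 0 in the edgeR fit, DESeq2 called 1 lower (7.41% of all genes) and the fit of all 12 libraries 10 (14.4%). Leaving out 1 T0 library gave 0 to 2 lower there (1 of 12591 to 1067 of 12573 genes). From T1 to T2, DESeq2 and the replicate block each called 1 lower (0.565% and 0.476% of all genes). With the replicate block, 6 were lower at T1 (13.9% of all genes) and 8 at T2 (12.2%), where Hnrnpab, Hnrnpf, Hnrnpul2 and Srsf4 lost the call, and 0 from T2 to T3. Same-numbered libraries did not deviate together at T1 against T0 (correlations -0.018, 0.121 and 0.066) or T2 against T0 (-0.064, 0.015 and -0.152). No paired analysis was possible for T3 against T0 because they share 1 number.

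Signs turned only for genes that were not called. Leaving out 1 library gave at T1 -0.286 to 0.006 for Hnrnpa3, -0.264 to 0.004 for Srsf6 and -0.005 to 0.212 for Hnrnph1. At T2 it gave -0.292 to 0.001 for Hnrnpa3 and -0.258 to 0.011 for Srsf6. At T3 it gave -0.066 to 0.219 for Hnrnpa3, -0.534 to 0.024 for Hnrnpd, -0.299 to 0.011 for Hnrnpk, -0.212 to 0.296 for Sfrs18, -0.186 to 0.008 for Srsf11 and -0.151 to 0.059 for Srsf5. Libraries 1 and 2 alone gave 0.061 (T1) and 0.022 (T2) for Srsf6 and 0.013 for Hnrnpa3 (T2). FPKM with limma gave -0.025 (T1) and -0.086 (T3) for Hnrnph1, and at T3 -0.274 for Hnrnpa3, -0.061 for Hnrnph3 and -0.161 for Sfrs18. Total counts gave 0.007 for Srsf5 at T3. Without T0 replicate 3, groups without overlap at T2 and T3 had 2 genes above in place of 0, and ratios to Hnrnpa0 had 15 below in place of 9 at T1 and 8 in place of 3 at T3. The cause was not tested. Counts over whole genes cannot separate transcripts, and repeats limit Hnrnpa1, Hnrnpa3, Hnrnpf, Hnrnpk and Srsf5.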
